A study of Mus musculus with 15 samples.

Results

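Scavenger receptors for modified lipoproteins are surface and lysosomal proteins that bind oxidized or acetylated low density lipoprotein (LDL) and other altered ligands. The 9 genes described here, *Msr1*, *Cd36*, *Marco*, *Scarb1*, *Scarb2*, *Cd68*, *Olr1*, *Lrp1* and *Cd14*, were chosen by name out of the 38924 genes listed for each library, and 8 of them were among the 14967 genes abundant enough to be tested. The values come from RNA-seq of myeloid cells sorted from the brains of 12-month-old male C57BL/6J wild-type mice. Cells positive for the myeloid integrin CD11b and negative for the T cell protein CD3e were parted by their level of the leukocyte protein CD45. CD45lo cells are the gate in which most microglia fall, and CD45hi cells hold blood-derived and border-resident myeloid cells beside microglia. The mice ate a chow diet (CD) or a western diet (WD) that is rich in fat and sugar and that began at 2 months of age, which gave 4 CD CD45hi, 4 CD CD45lo, 3 WD CD45hi and 4 WD CD45lo libraries. The diet is the means by which the mice were made obese, and no gene was altered in any group. The labels do not tie libraries to mice, while the study's data statement speaks of counts per animal. The deposited file names begin with a number that, but for WD CD45lo replicate 1, a CD45hi and a CD45lo library of a diet share. What it stands for is not given in the sources used here, and calls that are lost when it, or the number in the titles, is fitted as a replicate block are given with the results.

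Most scavenger receptors are not shut off when a macrophage fills with cholesterol, so a cell that takes up modified LDL through them can fill with lipid droplets. The class A receptors (*Msr1*, *Marco*) are trimers with a collagen-like stalk, the class B receptors (*Cd36*, *Scarb1*, *Scarb2*) cross the membrane at both ends, and the class D and class E receptors are represented by *Cd68*, a mostly lysosomal glycoprotein, and *Olr1*, a C-type lectin also called LOX-1. *Lrp1* is a very large endocytic receptor of the LDL receptor family, and *Cd14* is a lipid-anchored co-receptor that hands bacterial lipid and some modified LDL to Toll-like receptors. In the brain these proteins are known for the clearance of debris, apolipoproteins and amyloid by microglia and macrophages.

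Between the cell types, *Msr1* and *Cd36* were 11.2-fold to 37.7-fold higher in CD45hi than in CD45lo cells on the 2 diets, and *Olr1* was 8.48-fold higher on the WD. The *Olr1* libraries of the cell types overlapped, and its call was lost when any of 5 libraries was left out and in 4 other alternatives. *Cd14* was 1.98-fold higher in CD45hi cells on the CD and 1.82-fold higher on the WD, a change that passed a test of any difference but not the test of a difference beyond 1.5-fold. *Lrp1*, *Cd68* and *Scarb2*, which are abundant in both cell types, and *Scarb1*, which is scarce in both, were not called, and *Marco* had no count in any library. None of the 8 genes tested was called between the diets in either cell type.

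The sequence just upstream of the transcription start is shown for *Cd36* and *Olr1*, which were called between the cell types, and for *Lrp1*, which was not. They are the 250 bases before the start in RefSeq on GRCm38.p6, read 5′ to 3′, in which capitals mark matches to 5 short motifs that were searched. These are GAGGAA, the core of sites for the myeloid factor PU.1, TGANTCA, the site of AP-1, AGGTCA, the hexamer that nuclear receptors bind, and GGGCGG, the GC box, each on both strands, and TATAAA, the TATA box, on the gene's strand only. The TGANTCA motif reads alike on both strands and was counted once per position, and no marked match overlapped another.
Cd36 (chr5:17835897-17836146, minus strand): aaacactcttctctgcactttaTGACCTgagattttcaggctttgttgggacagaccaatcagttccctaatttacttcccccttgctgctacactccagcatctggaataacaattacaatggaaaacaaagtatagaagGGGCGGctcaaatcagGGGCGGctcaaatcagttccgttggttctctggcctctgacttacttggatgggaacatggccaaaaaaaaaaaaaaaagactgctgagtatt
Olr1 (chr6:129507166-129507415, minus strand): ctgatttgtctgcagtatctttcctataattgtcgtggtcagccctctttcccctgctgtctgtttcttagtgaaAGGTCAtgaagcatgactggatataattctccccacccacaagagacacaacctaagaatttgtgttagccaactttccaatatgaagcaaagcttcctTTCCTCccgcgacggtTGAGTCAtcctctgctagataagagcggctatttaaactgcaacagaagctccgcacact
Lrp1 (chr10:127621149-127621398, minus strand): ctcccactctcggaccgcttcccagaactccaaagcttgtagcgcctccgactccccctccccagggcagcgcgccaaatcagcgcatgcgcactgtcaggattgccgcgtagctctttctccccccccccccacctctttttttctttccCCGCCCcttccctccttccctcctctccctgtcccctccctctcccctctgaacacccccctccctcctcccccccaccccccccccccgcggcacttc

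Of the 250 bases upstream of *Cd36*, 43.2% were G or C, against 45.2% for *Olr1*, 67.2% for *Lrp1* and a median of 52.4% over 32841 mouse promoters of the same length. The *Cd36* stretch held 2 GC boxes and 1 nuclear receptor hexamer, the *Olr1* stretch 1 AP-1 site, 1 PU.1 core and 1 nuclear receptor hexamer, and the *Lrp1* stretch 1 GC box. A GC box was present in 32.7% of all promoters, a PU.1 core in 23.3%, a nuclear receptor hexamer in 14% (n = 4607), an AP-1 site in 6.75% and a TATA box in 7.59%. The table of promoters held 6 of the 9 genes, without *Msr1*, *Scarb1* and *Cd14*. Among the others *Scarb2*, at 65.6% G or C, had 1 GC box, *Cd68*, at 49.2%, had 2 AP-1 sites, 1 PU.1 core and 1 GC box, and *Marco*, at 47.6%, had 1 PU.1 core. The stretch shown for *Cd36* lies at 1 of several starts of that gene. The matches are a description of the letters only, since binding of no factor was measured.

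The labels and the depth were checked first. Between 11951412 and 17912272 estimated counts were assigned to genes in a library. A floor of 3 counts was set for detection, equal to 0.156 to 0.282 cpm, the count of a gene relative to a library size that is scaled by the trimmed mean of M values (TMM), and it covers counting error only. Of the microglia markers, *P2ry12* was at 2825 to 4022 cpm in CD45lo and 962 to 1484 cpm in CD45hi libraries, *P2ry13* at 1637 to 2365 and 647 to 984 cpm, and *Tmem119* at 1013 to 1377 and 348 to 722 cpm, so these transcripts were most abundant in the CD45lo gate and were also plentiful in the CD45hi gate. The 7 markers of border-associated macrophages, among them *Mrc1*, *Cd163*, *Lyve1* and *Pf4*, were all called higher in CD45hi cells on both diets, with sums of 830 to 2877 cpm against 68.5 to 253 cpm. Neutrophil markers (6 of 7 called on each diet) summed to 698 to 2744 cpm against 41.9 to 233 cpm, monocyte markers (3 of 6 called on each diet) to 322 to 837 cpm against 42.7 to 136 cpm, and dendritic cell markers (1 of 5 called on each diet) to 121 to 296 cpm against 18.8 to 35.7 cpm. Over all genes tested, 3.39% were called higher in CD45hi cells on the CD and 4.01% on the WD. Lymphocyte markers stayed at or below 35.8 cpm, with *Cd3e* at 0 in both CD45lo groups and in WD CD45hi cells. Endothelial and pericyte markers summed to 39.8 to 94.8 cpm and neuron and macroglia markers to 33.1 to 133 cpm, and in CD CD45hi cells *Aldh1l1* and *Mog* were at 0. Mitochondrial genes took 17.7% to 20.5% of the counts in CD45hi and 7.99% to 10.9% in CD45lo libraries. In bulk samples, fewer cells of a type and less RNA per cell cannot be told apart. Of the CD45hi libraries, those with the lowest mean correlation of log2 cpm with the others of their group were CD CD45hi replicate 4 (r = 0.816) and WD CD45hi replicate 1 (r = 0.789). Neither stood far from its group, whose libraries reached r = 0.832 on the CD and 0.799 on the WD. The calls are given with and without these libraries.

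Per unit of transcript length, the genes fell into a broad order that differed between the cell types in the place of *Msr1* and *Cd36*. On the scale of TPM (transcript abundance per unit length, scaled to 1 common total) as deposited, *Cd68* was the highest in every group, at 877 ± 119 TPM in CD CD45hi, 1073 ± 97.1 TPM in CD CD45lo, 814 ± 171 TPM in WD CD45hi and 1041 ± 118 TPM in WD CD45lo cells (SD, n = 4, 4, 3 and 4). In CD45hi cells of CD-fed mice the next levels were those of *Cd14* (204 ± 31.8 TPM) and *Lrp1* (173 ± 28.2 TPM), whose libraries overlapped, then *Msr1* (84.2 ± 25.1 TPM), *Scarb2* (56.6 ± 14.2 TPM) and *Cd36* (52.4 ± 20.05 TPM), which overlapped in turn, and then *Scarb1* (12.9 ± 7.53 TPM) and *Olr1* (9.49 ± 6.69 TPM). WD CD45hi cells had the same order of means but for the last places, with *Olr1* at 23.9 ± 16.8 TPM and *Scarb1* at 5.85 ± 3.96 TPM, whose libraries overlapped. There, unlike on the CD, the libraries of *Lrp1* and *Msr1* overlapped too. *Lrp1* was at 249 TPM (832 cpm) in replicate 2 and 94.9 TPM (756 cpm) in replicate 3, with estimated effective transcript lengths of 4225 and 10629 bases. The order by TPM thus rests on these length estimates as well. In CD45lo cells *Lrp1* (219 ± 33.7 TPM on the CD, 251 ± 28.2 TPM on the WD) stood above *Cd14* (142 ± 3.66 and 143 ± 16.6 TPM) and *Scarb2* (104 ± 1.94 and 91.8 ± 15.4 TPM), with no overlap between neighbours in that order. *Scarb1*, *Msr1*, *Olr1* and *Cd36* followed at means of 11.7 down to 2.09 TPM, and *Marco* was at 0. *Msr1* and *Cd36* together made up 9.39% ± 2.39 of the summed TPM of the 9 genes in CD CD45hi and 10.3% ± 2.46 in WD CD45hi cells, against 0.80% ± 0.29 and 0.71% ± 0.35 in CD45lo cells (SD, n = 4, 3, 4 and 4).

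**Figure D1:**
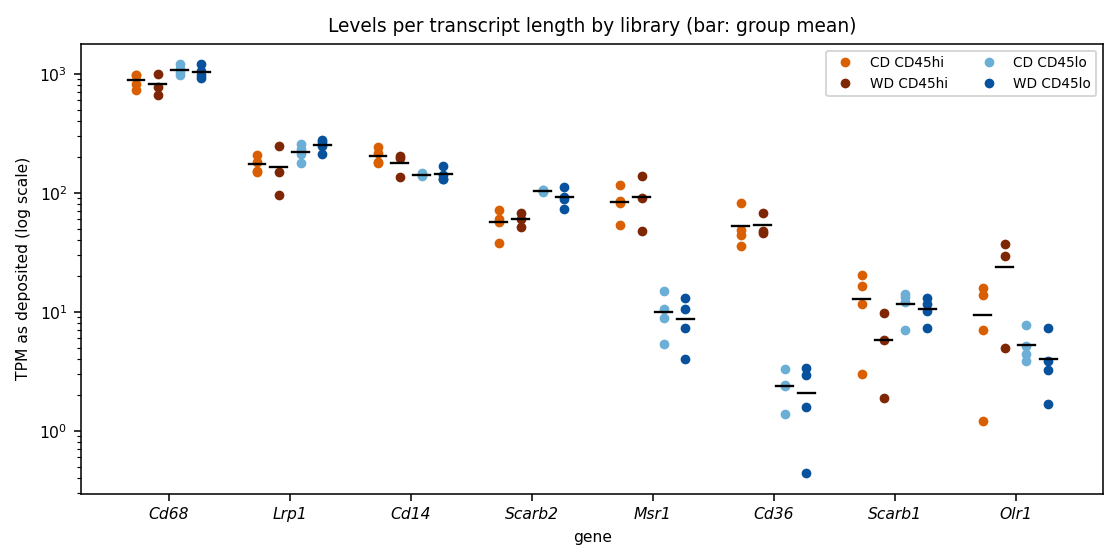
TPM as deposited, on a log scale, of the 8 genes with counts, 1 point per library and a bar at each group's mean, for CD CD45hi, WD CD45hi, CD CD45lo and WD CD45lo cells. *Cd68* lies on top in every group, and the largest gaps between the cell types are those of *Msr1* (84.2 against 9.97 TPM on the CD) and *Cd36* (52.4 against 2.39 TPM).

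The first comparison asked which of these receptors differ between CD45hi and CD45lo cells, and was made on each diet with edgeR's glmTreat, which tests for a difference beyond 1.5-fold. A gene was called at a false discovery rate (FDR, the Benjamini-Hochberg adjusted p over the 14967 genes) under 0.05. On the CD 2 of the 8 genes were called higher in CD45hi cells, where 3.39% of all genes tested were, and none was called lower, where 0.588% of all genes were. On the WD 3 of the 8 were called higher, where 4.01% of all genes were, and none was called lower, where 1.17% of all genes were. The median log2 fold change of the 8 genes was 0.59 on the CD and 0.48 on the WD, beside 0.04 and 0 over all genes tested. The libraries of the cell types did not overlap for 4 of the 8 genes on the CD and for 4 on the WD, against 16.5% and 23.4% of all genes. In both cases 3 of these (*Msr1*, *Cd36*, *Cd14*) were higher in CD45hi cells and 1 was lower, *Scarb2* on the CD and *Lrp1* on the WD.

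**Figure D2:**
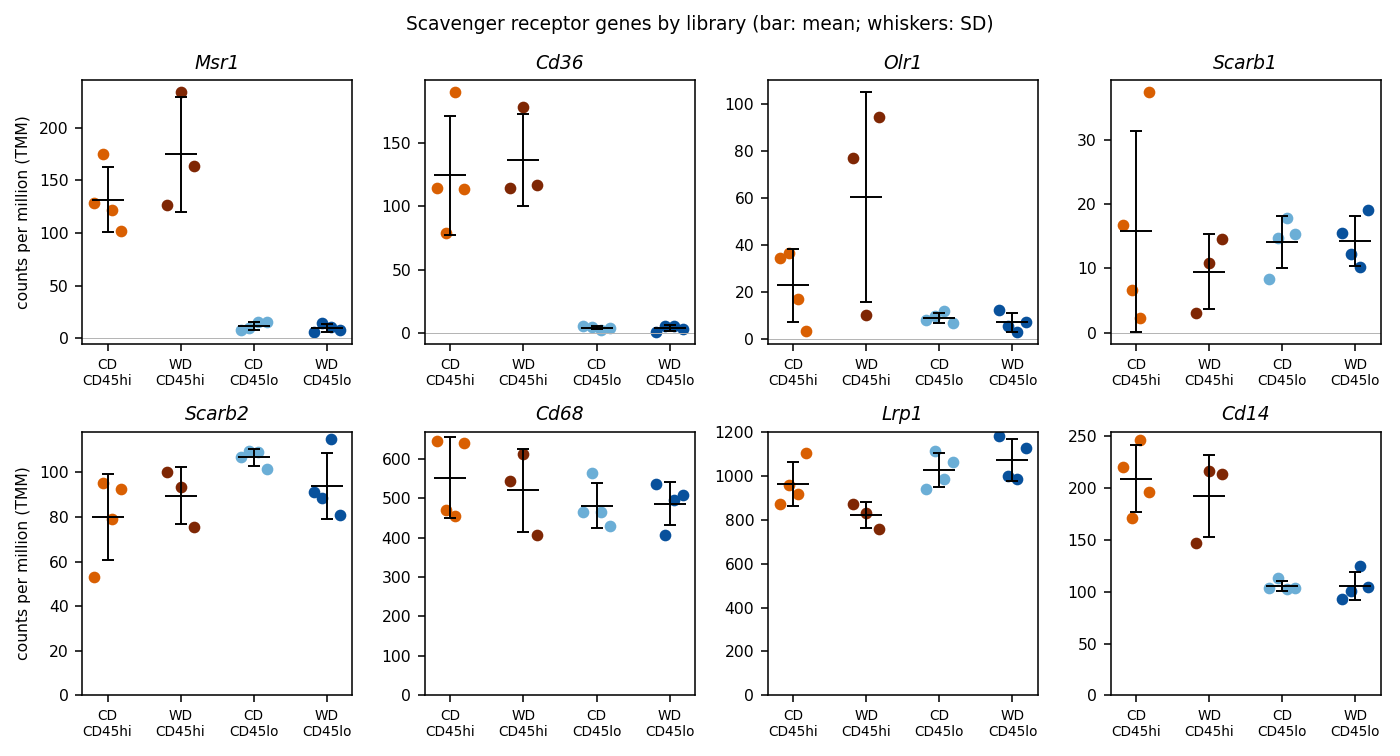
Normalized cpm of the 8 genes with counts in each of the 15 libraries, with the mean (bar) and SD (whiskers) of each group on a linear axis. The CD45hi libraries of *Msr1* (102 to 234 cpm) and *Cd36* (79.1 to 190.4 cpm) lie above every CD45lo library (at most 15.2 and 5.71 cpm), those of *Olr1* and *Scarb1* scatter widely, and those of *Cd68* overlap with the CD45lo libraries.

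*Msr1* (ENSMUSG00000025044, chromosome 8 of mm10, 39581685 to 39642673, minus strand) encodes scavenger receptor A, the founding receptor for acetylated LDL on macrophages. Its 4 CD CD45hi libraries were at 129, 175, 122 and 102 cpm and its 4 CD CD45lo libraries at 7.47, 9.34, 15.2 and 15.2 cpm. The 3 WD CD45hi libraries were at 127, 234 and 163 cpm and the 4 WD CD45lo libraries at 5.90, 13.95, 10.98 and 7.42 cpm. Every CD45hi library was thus above every CD45lo library, whatever the diet. The log2 fold change was 3.48 (SE 0.34, FDR = 1.07e-05) on the CD, which is 11.2-fold with a 95% confidence interval of 6.79 to 18.4. On the WD it was 4.19 (SE 0.36, FDR = 2.51e-06), which is 18.2-fold.

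*Marco* (ENSMUSG00000026390, chromosome 1, 120474538 to 120505024, minus strand), the other class A receptor, is known from macrophages of the lung, the spleen and the peritoneum. It had 0 counts in all 15 libraries, which allows at most 0.156 to 0.282 cpm by the floor of 3 counts, and it did not enter any test.

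*Cd36* (ENSMUSG00000002944, chromosome 5, 17781690 to 17888801, minus strand) encodes the class B receptor for oxidized LDL and long-chain fatty acids. It was at 115, 79.1, 190.4 and 114 cpm in the CD CD45hi libraries and at 5.65, 4.25, 2.40 and 4.09 cpm in the CD CD45lo libraries. In WD-fed mice it was at 115, 179 and 117 cpm in CD45hi cells and at 0.72, 5.71, 5.16 and 2.88 cpm in CD45lo cells, and the lowest of these values rests on 11 counts. The groups did not overlap on either diet, and the lowest CD45hi library (79.1 cpm) lay far above the highest CD45lo library (5.71 cpm). The log2 fold change was 4.92 (SE 0.51, FDR = 1.61e-05) on the CD and 5.24 (SE 0.53, FDR = 1.19e-05) on the WD, or 30.3-fold and 37.7-fold. These were the largest differences among the 8 genes in both comparisons. *Msr1* and *Cd36* did not keep a constant ratio within a gate, since *Msr1* cpm divided by *Cd36* cpm ran from 0.64 to 2.21 over the 7 CD45hi libraries and from 1.32 to 8.18 over the 8 CD45lo libraries.

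*Scarb1* (ENSMUSG00000037936, chromosome 5, 125277087 to 125341094, minus strand) encodes SR-BI, the receptor through which cells exchange cholesterol with high density lipoprotein. Its CD CD45hi libraries were at 16.8, 6.62, 2.29 and 37.3 cpm, and its CD CD45lo libraries at 8.35, 14.8, 17.9 and 15.3 cpm. The WD CD45hi libraries were at 3.10, 10.8 and 14.6 cpm and the WD CD45lo libraries at 15.5, 12.2, 10.2 and 19.0 cpm. The CD45hi libraries were the more scattered, with a coefficient of variation of 99.1% on the CD against 28.8% in CD45lo cells, and the groups overlapped. The log2 fold change was 0.16 (SE 0.67) on the CD and -0.58 (SE 0.73) on the WD, neither called, and without CD CD45hi replicate 4, the library with the highest value, the former was -0.71. Another annotated gene, *Gm42633*, overlaps 2764 bases of *Scarb1* on the same strand, and its part in these values was not tested.

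*Scarb2* (ENSMUSG00000029426, chromosome 5, 92441314 to 92506833, minus strand) encodes LIMP-2, the lysosomal member of the class B family that carries beta-glucocerebrosidase to lysosomes. It was at 53.2, 95.1, 79.3 and 92.6 cpm in CD CD45hi and at 107, 109.7, 109.4 and 101 cpm in CD CD45lo libraries. In WD-fed mice the levels were 100.4, 93.3 and 75.3 cpm in CD45hi cells and 91.1, 88.5, 115 and 80.8 cpm in CD45lo cells. All CD CD45hi libraries were below the CD CD45lo libraries, while the groups overlapped on the WD. The log2 fold changes of -0.42 (SE 0.20, FDR = 0.97) and -0.07 (SE 0.22) were not called, and the first reached an FDR of 0.27 in the test of any difference.

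*Cd68* (ENSMUSG00000018774, chromosome 11, 69664213 to 69666153, minus strand) is widely used to stain the lysosomes of activated microglia and macrophages. Its CD CD45hi libraries were at 645, 469.6, 455 and 639 cpm and its CD CD45lo libraries at 466, 565, 465 and 429.6 cpm. The WD CD45hi libraries were at 543, 611 and 406 cpm and the WD CD45lo libraries at 535, 408, 494 and 508 cpm. The groups overlapped on both diets, with log2 fold changes of 0.20 (SE 0.16, 95% confidence interval -0.14 to 0.54) on the CD and 0.10 (SE 0.17, -0.27 to 0.46) on the WD. On the deposited TPM scale, which is not TMM-normalized, the group means stood the other way, at 877 in CD45hi and 1073 in CD45lo cells of CD-fed mice and at 814 and 1041 in WD-fed mice. The mitochondrial share given above differed between the same groups, and its part in the difference between the scales was not tested.

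*Olr1* (ENSMUSG00000030162, chromosome 6, 129485244 to 129507165, minus strand) encodes the receptor for oxidized LDL best known from endothelium and from macrophages exposed to inflammatory signals. It was at 34.3, 36.5, 17.2 and 3.22 cpm in CD CD45hi and at 7.94, 9.70, 11.8 and 6.75 cpm in CD CD45lo libraries. In WD CD45hi cells it was at 77.1, 10.1 and 94.4 cpm, and in WD CD45lo cells at 12.5, 5.64, 3.02 and 7.35 cpm. In both diets 1 CD45hi library, replicate 4 on the CD and replicate 2 on the WD, lay within or below the range of the CD45lo libraries, so the groups overlapped. The log2 fold change on the WD was 3.08 (SE 0.75, FDR = 0.0292), or 8.48-fold with a 95% confidence interval of 1.496 to 4.67 on the log2 scale. On the CD it was 1.33 (SE 0.68, FDR = 0.53) and was not called. The call on the WD was lost when WD CD45hi replicate 1 (FDR = 0.0702) or 3 (FDR = 0.0873) or WD CD45lo replicate 2 (FDR = 0.0843), 3 (FDR = 0.0934) or 4 (FDR = 0.0755) was left out. It was also lost with the replicate block by titles (FDR = 0.203) or by file names (FDR = 0.0654), in a fit of the compared groups alone (FDR = 0.0596) and with limma-voom (FDR = 0.247).

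*Lrp1* (ENSMUSG00000040249, chromosome 10, 127538161 to 127621148, minus strand), whose longest transcripts have up to 89 exons, takes up apolipoprotein E, alpha-2-macroglobulin and amyloid beta. It was the gene of the 9 with the most counts, at 873, 958, 917 and 1102 cpm in CD CD45hi and 942, 1113, 984 and 1064 cpm in CD CD45lo libraries. In WD-fed mice it was at 871, 832 and 756 cpm in CD45hi cells and at 1180, 998, 986 and 1125 cpm in CD45lo cells. The groups overlapped on the CD, and on the WD all 3 CD45hi libraries were below all 4 CD45lo libraries. The log2 fold change was -0.09 (SE 0.11) on the CD and -0.39 (SE 0.12, 95% confidence interval -0.64 to -0.14) on the WD, a fitted difference smaller than 1.5-fold (FDR = 0.98), and the test of any difference gave FDR = 0.0515. An antisense gene, *Gm16217*, overlaps 1323 bases of *Lrp1* on the opposite strand. Whether the counting used strand is not given in the sources used here, so it is not known whether reads of the pair were kept apart.

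*Cd14* (ENSMUSG00000051439, chromosome 18, 36725067 to 36726798, minus strand) was at 221, 172, 247 and 197 cpm in the CD CD45hi and at 103, 113, 103 and 104 cpm in the CD CD45lo libraries. It was at 147, 216.5 and 213 cpm in the WD CD45hi and at 93.4, 101, 125 and 104 cpm in the WD CD45lo libraries. Every CD45hi library was above every CD45lo library, and the 4 CD CD45lo libraries ran from 103 to 113 cpm only. The log2 fold change was 0.98 (SE 0.17, 1.98-fold) on the CD and 0.86 (SE 0.18, 1.82-fold) on the WD. Beyond 1.5-fold the FDR was 0.0794 and 0.187, so *Cd14* was not called, whereas the test of any difference gave FDR = 0.0012 and 0.00548, a threshold that 5.95% and 6.22% of all genes passed upward in CD45hi cells on the 2 diets. On the CD it was called once CD CD45hi replicate 2 (FDR = 0.0416) or WD CD45hi replicate 1 (FDR = 0.0453) was left out. Without CD CD45hi replicate 4 and WD CD45hi replicate 1 together, a choice made after seeing the data, *Cd14* was called on the CD (log2 fold change 1.01, FDR = 0.0446) and on the WD (1.02, FDR = 0.0458). The calls of *Msr1*, *Cd36* and, on the WD, *Olr1* stood in the same fit, in which 3 of the 8 genes were called higher on the CD, where 3.41% of all genes were, and 4 on the WD, where 4.62% of all genes were.

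**Figure D3:**
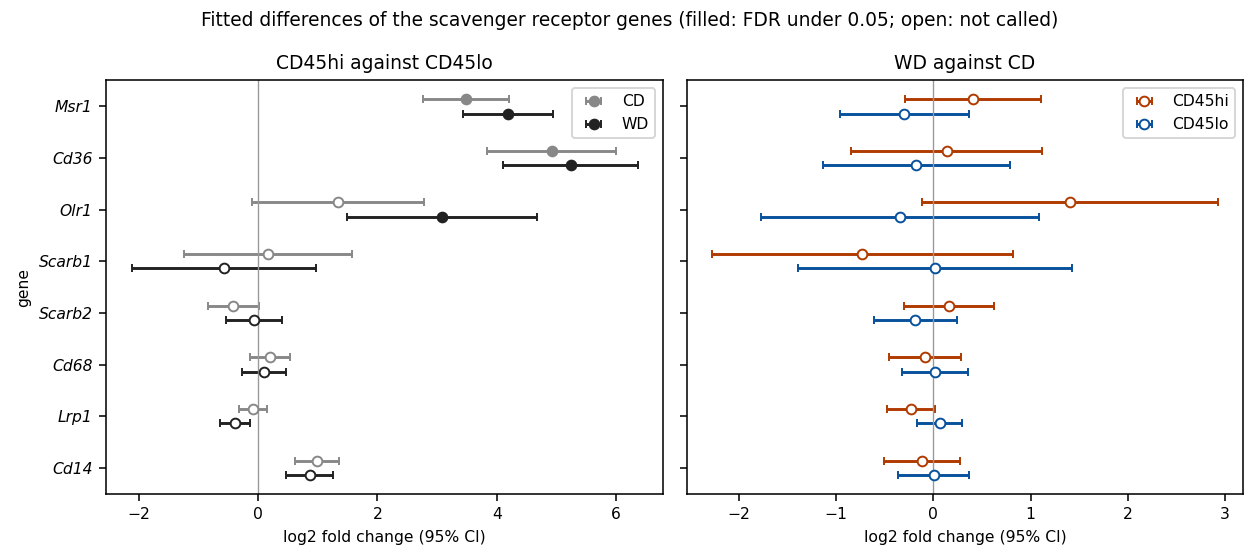
Fitted log2 fold changes with 95% confidence intervals of the 8 genes tested, CD45hi against CD45lo on each diet (left) and WD against CD in each cell type (right), with filled points for genes called at FDR under 0.05. *Msr1* (3.48 and 4.19), *Cd36* (4.92 and 5.24) and, on the WD, *Olr1* (3.08) are filled on the left, and on the right all points are open.

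The genes that were higher in CD45hi cells were measured beside markers of the other cells in that gate. The 7 border-associated macrophage markers summed to 2095 to 2222 cpm in the CD CD45hi libraries, but to 830, 2877 and 2020 cpm in WD CD45hi replicates 1, 2 and 3. In the same order *Msr1* was at 127, 234 and 163 cpm, *Cd36* at 115, 179 and 117 cpm and *Cd14* at 147, 216.5 and 213 cpm, so for these genes the library with the lowest marker level was the lowest and that with the highest was the highest. In the first of them *Msr1* and *Cd36* were nevertheless within the range of the CD CD45hi libraries, and *Cd14* was below it. Of the other marker lists, only the monocyte sums, at 487, 528 and 521 cpm, had this order of the 3 libraries too. *Olr1* did not follow this order, at 77.1, 10.1 and 94.4 cpm, with its lowest value in the library of the highest marker level. Its highest value was in the library of the middle marker level. Neutrophil markers ran from 1067 to 2744 cpm in CD CD45hi and from 698 to 1249 cpm in WD CD45hi libraries. Over WD CD45hi replicates 1, 2 and 3 they summed to 908, 698 and 1249 cpm, the order of *Olr1*. Neuron and macroglia markers, at 129, 110 and 133 cpm, had that order too. Over the CD CD45hi libraries the orders of neutrophil markers and *Olr1* differed, since replicate 4 had the highest neutrophil sum and the lowest *Olr1* value (3.22 cpm). The part of any of these cell types in the differences was not tested.

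**Figure D4:**
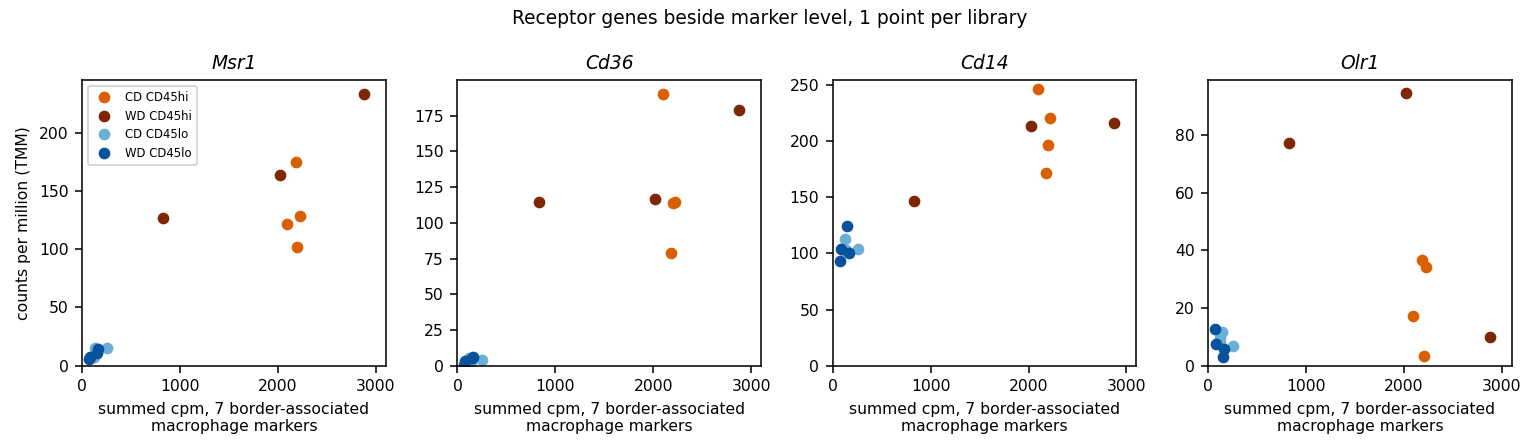
Normalized cpm of *Msr1*, *Cd36*, *Cd14* and *Olr1* in each of the 15 libraries against the summed cpm of 7 border-associated macrophage markers in the same library, on linear axes. The CD45lo libraries lie near the origin of the marker axis (68.5 to 253 cpm), the 4 CD CD45hi libraries share 1 marker level (2095 to 2222 cpm) while their receptor values spread, and the 3 WD CD45hi libraries are spread from 830 to 2877 cpm.

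The next comparison asked whether the WD changed these genes within a cell type, and was made with edgeR's glmQLFTest, which tests for any difference. In CD45hi cells 0 of the 8 genes were called and 0 had an unadjusted p under 0.05, where 0.254% of all genes tested (38, of which 9 were higher on the WD) were called and 17.6% had an unadjusted p under 0.05. *Olr1* had the largest fitted difference, with libraries at 3.22 to 36.5 cpm on the CD and at 10.1 to 94.4 cpm on the WD, a log2 fold change of 1.41 (SE 0.72, FDR = 0.32) with a 95% confidence interval of -0.12 to 2.93. *Lrp1* was the 1 gene of the 8 whose libraries did not overlap between the diets, with 756 to 871 cpm on the WD below 873 to 1102 cpm on the CD, where 5.77% of all genes did not overlap. Its log2 fold change was -0.23 (SE 0.12, FDR = 0.32). *Msr1* differed by 0.41 (SE 0.33, FDR = 0.56), with an interval of -0.29 to 1.10, and *Cd36* by 0.14 (SE 0.46), with an interval of -0.84 to 1.12. For *Cd14* (-0.12, SE 0.18) the interval was -0.51 to 0.27, for *Cd68* (-0.09, SE 0.17) it was -0.46 to 0.28, and for *Scarb2* (0.16, SE 0.22) it was -0.30 to 0.63. *Scarb1* (-0.73, SE 0.73) turned to 0.15 without CD CD45hi replicate 4. The intervals of *Olr1*, *Msr1*, *Cd36* and *Scarb1* thus leave room for changes of 2-fold or more at this number of libraries.

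In CD45lo cells none of the 8 genes was called and none had an unadjusted p under 0.05 between the diets, where 0% of all genes tested were called (123 genes, or 0.822%, had an unadjusted p under 0.05, and DESeq2 called 4). The libraries of the diets overlapped for all 8 genes, but the share of all genes that overlapped here was not counted, so nothing is read from this. The log2 fold changes were closest to 0 for *Cd14*, at 0.00 (SE 0.17), with group means of 106 cpm on both diets, for *Scarb1*, at 0.01 (SE 0.67), and for *Cd68*, at 0.01 (SE 0.16). The lowest were those of *Olr1* (-0.34, SE 0.68) and *Msr1* (-0.30, SE 0.31). The 95% confidence intervals were -1.40 to 1.42 for *Scarb1*, -1.77 to 1.09 for *Olr1* and -1.14 to 0.78 for *Cd36*. For these genes they leave room for changes of 2-fold or more in CD45lo cells too.

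*Olr1* was called on the WD only, so the difference of the differences was tested as the interaction of diet and CD45 level. It was called for 0 of the 8 genes, none of which had an unadjusted p under 0.05, where 0.00668% of all genes (1 gene) were called and 10.1% had an unadjusted p under 0.05. For *Olr1* the gap between the cell types was 1.75 larger on the WD on the log2 scale (SE 0.99, FDR = 0.58), with an interval of -0.34 to 3.84. For *Msr1* the term was 0.71 (SE 0.46, FDR = 0.65), for *Lrp1* -0.30 (SE 0.16, FDR = 0.57) and for *Cd36* 0.31 (SE 0.65, FDR = 0.93).

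The other genes of these pathways were followed in 5 lists. Of all genes tested, 3.39% were called higher in CD45hi cells on the CD and 4.01% on the WD. Called lower were 0.588% and 1.17%, and the median log2 fold changes over all genes were 0.04 and 0. Of 15 other scavenger receptors, 11 were tested, and *Scara3*, *Scara5*, *Stab2* and *Cd163l1* were too low. On each diet 5 were called higher in CD45hi cells, with a median log2 fold change of 1.21 on the CD and 1.08 on the WD. The highest on the WD was *Cd44*, the hyaluronan receptor, at 293 ± 111 cpm (SD, n = 3) against 9.39 ± 5.72 cpm (SD, n = 4), so that the log2 fold change was 4.97 (SE 0.45, FDR = 3.26e-06). *Mrc1*, the mannose receptor, was at 1168 ± 729 cpm (SD, n = 3) against 68.4 ± 24.4 cpm (SD, n = 4), with WD CD45hi libraries from 456 to 1912 cpm and a log2 fold change of 4.09 (SE 0.41, FDR = 1.19e-05). The lowest of those called higher were *Clec7a*, the beta-glucan receptor dectin-1, at 3.18 (SE 0.32, FDR = 1.75e-05), and *Cxcl16*, whose membrane form binds oxidized LDL, at 1.96 (SE 0.26, FDR = 0.000742). *Mrc1* and *Cd163* are also on the list of border-associated macrophage markers. On the WD 1 receptor was called lower, *Scarf2*, which is below the level set for naming and was named after its values were seen, at 0.03 cpm in CD45hi and 3.29 cpm in CD45lo cells. The call of *Scarf2* was lost with the replicate block by titles (FDR = 0.145) or file names (FDR = 0.146) and in a fit of the compared groups alone (FDR = 0.0501). The receptor *Stab1*, which binds modified LDL, was likewise named after its values were seen. On the CD it resembled *Cd14*, with a log2 fold change of 1.00 (SE 0.19) that was not called beyond 1.5-fold (FDR = 0.0959). On the WD its log2 fold change was 0.67 (SE 0.21, FDR = 0.489), and its libraries overlapped, unlike those of *Cd14*.

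In the LDL receptor family and its partners 3 of 13 genes were called higher in CD45hi cells on the CD and 2 on the WD, with medians of 0.04 and 0.76. The shares of all genes called higher were 3.39% and 4.01%. *Dab2*, an adaptor that links these receptors to clathrin, was at 692 ± 301 cpm (SD, n = 3) against 57.8 ± 12.9 cpm (SD, n = 4) on the WD, with a log2 fold change of 3.58 (SE 0.35, FDR = 1.08e-05). Its symbol stands for a pair of rows, of which the one with more counts was used. *Sorl1*, a sorting receptor for amyloid precursor protein, rose by 1.23 on the log2 scale (SE 0.22, FDR = 0.0288). This call of *Sorl1* was lost with the replicate block by titles (FDR = 0.1399) or file names (FDR = 0.0717), and with DESeq2 (FDR = 0.0648) and limma-voom (FDR = 0.1356). It was also lost without CD CD45hi replicate 4 and WD CD45hi replicate 1 together (FDR = 0.0538). Leaving out WD CD45hi replicate 1 or WD CD45lo replicate 1, 3 or 4 ended it as well (FDR = 0.0554 to 0.1077).

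Among the Toll-like receptors that work with CD14 and their partners, *Cd14* itself aside, 0 of 12 genes were called on the CD, where *Tlr2* reached an FDR of 0.0162 in the test of any difference, and 1 of 12 on the WD, with medians of 0.10 and -0.03. Over all genes, 3.39% and 4.01% were called higher on the 2 diets, and 0.588% and 1.17% lower. The receptor complex that CD14 serves differed from *Cd14* in its values. *Tlr4* was at 135 ± 55.1 cpm in CD CD45hi and 136 ± 14.3 cpm in CD CD45lo cells (SD, n = 4), and at 91.3 ± 28.3 and 117 ± 19.7 cpm on the WD (SD, n = 3 and 4). *Ly96*, which encodes its partner MD-2, was at 37.3 ± 19.4 and 26.4 ± 3.35 cpm on the CD (SD, n = 4) and at 23.0 ± 3.48 and 31.8 ± 9.86 cpm on the WD (SD, n = 3 and 4). The gene called on the WD was *Tlr2*, which pairs with CD36 and CD14 at the membrane, at 276 ± 65.0 cpm (SD, n = 3) against 99.2 ± 13.6 cpm (SD, n = 4), and its log2 fold change was 1.48 (SE 0.23, FDR = 0.00518).

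Of 12 genes that handle lipid downstream of the receptors, 1 was called higher on the CD and 2 on the WD, with medians of 0.37 and 0.27. Beside them, 3.39% and 4.01% of all genes were called higher. *Plin2*, which coats lipid droplets, was called on both diets, and the call stood in every alternative run on the WD but not on the CD. It was at 53.0 ± 16.9 cpm against 15.6 ± 6.45 cpm on the CD (SD, n = 4), with a log2 fold change of 1.76 (SE 0.39, FDR = 0.0358), and at 95.9 ± 39.6 cpm (SD, n = 3) against 10.6 ± 3.88 cpm (SD, n = 4) on the WD, 3.17 (SE 0.43, FDR = 0.000328). On the CD the call of *Plin2* was lost with the replicate block by titles (FDR = 0.0949) or file names (FDR = 0.0532), with limma-voom (FDR = 0.0856), in a fit of the compared groups alone (FDR = 0.0571) and when CD CD45hi replicate 1 or 2 or CD CD45lo replicate 2, 3 or 4 was left out (FDR = 0.0521 to 0.1285). The other gene called on the WD was the fatty acid binding protein gene *Fabp4*, named after its values were seen, at 0.92 to 1.98 cpm in WD CD45hi libraries and at 0 in every CD45lo library. The call of *Fabp4* was lost in 12 of the 15 fits that left out 1 library, all but those without CD CD45hi replicate 1 or 3 or CD CD45lo replicate 3 (FDR up to 0.1024), and in 6 of 9 other alternatives, both blocks among them (FDR = 0.354 by titles and 0.3745 by file names).

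Among 10 regulators of scavenger receptor genes 2 were called higher on each diet, *Pparg* and *Cebpb*, with medians of 0.49 on the CD and 0.05 on the WD over the list. Of all genes, 3.39% were called higher on the CD and 4.01% on the WD. *Pparg*, the lipid-sensing nuclear receptor that induces *Cd36*, was at 3.06 to 5.99 cpm in CD CD45hi libraries and at or below 0.123 cpm, which is under the floor, in the CD CD45lo libraries (FDR = 0.00895). On the WD it was at 6.11 to 21.2 cpm in CD45hi and 0 to 0.88 cpm in CD45lo libraries, a log2 fold change of 5.39 (SE 1.31, FDR = 0.0226). Its WD CD45hi libraries were above its CD CD45hi libraries, with a log2 fold change between the diets of 1.58 (SE 1.14, FDR = 0.50) that was not called. Libraries of the diets did not overlap for 5.77% of all genes in CD45hi cells. *Cebpb* was at 21.4 ± 2.31 cpm (SD, n = 3) against 4.70 ± 0.86 cpm (SD, n = 4) on the WD, 2.18 on the log2 scale (SE 0.47, FDR = 0.0194). With the replicate block by titles or file names *Cebpb* lost its call on the CD (FDR = 0.0847 or 0.0936) and on the WD (FDR = 0.2257 or 0.2236), and *Pparg* on the WD (FDR = 0.1725 or 0.171). Leaving out WD CD45lo replicate 1 or 4 ended the WD calls of both, as did WD CD45hi replicate 1 or WD CD45lo replicate 2 for *Pparg* and WD CD45lo replicate 3 for *Cebpb* (FDR = 0.05405 to 0.0662 over these fits). The compared groups alone ended that of *Pparg* (FDR = 0.0657) and limma-voom that of *Cebpb* (FDR = 0.06155). *Nr1h3*, which encodes the sterol sensor LXR alpha, was at or below 0.525 cpm in all libraries of the other groups and at 0.09, 3.89 and 5.06 cpm in WD CD45hi cells, taken from lowest to highest, and was not called between the diets in these cells (FDR = 0.21). No gene of the 5 lists was called between the diets in either cell type or in the interaction. The shares of all genes called were 0.254% in CD45hi cells, 0% in CD45lo cells and 0.00668% in the interaction.

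The genes whose pattern over the 15 libraries was most like that of a receptor were taken from 8252 genes with a mean of at least 10 cpm, by Pearson's r of log2 cpm. These are descriptions only, since the libraries fall into 4 groups and share their normalization, so r mostly follows the difference between the cell types. *Msr1* was most like *Lyz2* (r = 0.985), which encodes lysozyme, *Igf1* (0.985) and the antigen presentation gene *H2-Ab1* (0.981). *Cd36* was most like 3 mitochondrial genes, *mt-Co1* (0.986), *mt-Rnr2* (0.981) and *mt-Rnr1* (0.981), whose share of the counts parted the gates too, and the part of that share in the *Cd36* values was not tested. *Cd14* was most like *Asprv1* (0.979), *Cd163* (0.954) and *Mrc1* (0.951). The best matches of the other genes were lower, *Nup133* (0.943), *Atp5g1* (0.915) and *Nfyb* (0.885) for *Scarb1*, *Atp10d* (0.864), *Zfp516* (0.862) and *Osbpl3* (0.859) for *Olr1*, *Ly6a* (0.901), *Marcksl1* (0.887) and *Atp6v0c* (0.842) for *Cd68*, *Ski* (0.872), *Ralb* (0.864) and *Whrn* (0.860) for *Lrp1*, and *Usp22* (0.826), *Nit1* (0.822) and *Agbl5* (0.815) for *Scarb2*.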

How the data were processed

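RNA of FACS-sorted CD11b+ brain cells was made into poly(A)-selected libraries and sequenced on either of 2 Illumina instruments. The methods do not tie libraries to instruments, and an effect of instrument was not tested. The authors trimmed the reads, removing bases under Phred 30, and ran RSEM 1.2.12 with Bowtie2 on mm10. The release of the annotation is not given in the sources used here. Per gene and library they deposited an expected count (an estimated count, not normalized), TPM and FPKM. The deposited TPM served for levels between genes, without a test, and the deposited FPKM only for a check of that order.

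Expected counts were rounded, genes under 1 cpm in all libraries or in all but 1 were dropped, and TMM-normalized counts of all 15 libraries were fitted together, with 4 groups taken from the sample titles, in edgeR 4.0.16 (R 4.3.3, legacy quasi-likelihood). glmTreat at 1.5-fold compared the cell types and glmQLFTest the diets and the interaction, each at FDR under 0.05. The SE is the log2 fold change divided by the square root of F. The computation was tested on simulated data. All 9 genes are named. Of the other lists, the 2 highest and 2 lowest called between the cell types on the WD with at least 10 cpm are named, with *Tlr4*, *Ly96*, *Pparg* and *Nr1h3*. A gene of these lists and a marker are not reported here. The genes and lists were chosen with earlier results of these data known. Coordinates are those of GENCODE M21.

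No replicates of a group were identical (chi-square per degree of freedom 20.6 to 135 over 21 pairs). Alternatives were DESeq2 1.42.0, limma-voom (limma 3.58.1), the edgeR 4 form of the fit, a fold limit set afterwards, other filters, size factors, samples and replicate blocks, and leaving out each library.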

Additional observations from a re-analysis of the deposited data

Results flagged for a closer look

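*Cd14* in CD CD45lo replicate 2 was at 112.8 cpm, set apart above the other 3 libraries of its group by a gap of 0.916 of the group's whole range, beyond Dixon's 95% critical value for 4 samples. It was the 1 of 24 groups of 4 libraries tested over the 8 genes that was set apart in this way, and chance alone sets apart about 1 in 20. The group's range was narrow (103 to 113 cpm), and all 7 CD45hi libraries lay above it.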

How the results depend on the processing

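The calls of *Msr1* and *Cd36* between the cell types stood on both diets in every alternative run (log2 fold changes of 3.32 to 3.63 and 4.65 to 5.12 on the CD, and 3.92 to 4.43 and 4.90 to 5.58 on the WD). *Olr1* on the WD lost its call with limma-voom (2.65, FDR = 0.247), in a fit of the compared groups alone (3.09, FDR = 0.0596) and with the replicate block by titles (2.78, FDR = 0.203) or by file names (3.09, FDR = 0.0654), and its FDR ran from 0.00666 to 0.0934 when 1 library was left out. *Cd14* gained a call with the 1.5-fold limit set afterwards on the CD (FDR = 0.0012) and on the WD (FDR = 0.00548), and on the CD without CD CD45hi replicate 2 (FDR = 0.0416) or WD CD45hi replicate 1 (FDR = 0.0453). The causes were not tested. No call changed its direction. The number of the 8 genes called was 2 or 3 on the CD and 2 to 4 on the WD, and 0 between the diets and in the interaction in every alternative run, while all genes called between the diets in CD45hi cells numbered 38, but 1030 with DESeq2, 252 with the edgeR 4 form and 0 in a fit of the compared groups alone. Between the cell types 595 (CD) and 775 (WD) genes were called, and 1162 and 1335 with the fold limit set afterwards, and the replicate block by titles or file names gave 398 or 353 on the WD. Genes called in the interaction numbered 1, but 188 with DESeq2, and in CD45lo cells 0 between the diets, but 4 with DESeq2. The calls of *Sorl1*, *Fabp4*, *Pparg*, *Cebpb* and *Scarf2* on the WD, and of *Plin2* and *Cebpb* on the CD, were lost with either block, and their other losses are given with these genes. Called lipid genes fell from 2 to 1 on the WD with either block, DESeq2, either other filter, the compared groups alone, CD CD45hi replicate 4 and WD CD45hi replicate 1 left out together and 12 of 15 single libraries left out, and from 1 to 0 on the CD with either block, the compared groups alone or without CD CD45hi replicate 2 or CD CD45lo replicate 2, 3 or 4. Called regulators fell from 2 to 0 on the WD with either block or without WD CD45lo replicate 1 or 4, and from 2 to 1 on the CD with either block. File names share no number across the diets. Over the titles or file names, the correlations computed to look for pairing of same-numbered libraries were -0.0217 to 0.0695 in 7 pairs. They do not stand for the likeness of whole profiles, since libraries correlated with others of their group at mean r of 0.789 to 0.949 in log2 cpm. Values of -0.0217 to 0.0695 in so few pairs cannot show that the libraries are unpaired. The main fit did not pair them, and the calls that either block ends are given above. The order by FPKM was that by TPM. Depth limits *Marco*, *Scarb1*, *Olr1* and, in CD45lo cells, *Cd36* (11 to 96 counts) and *Msr1* (90 to 267 counts).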
